A study of Mus musculus with 4 samples.

Results

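Neutrophils of the mouse pancreas were described in 173 cell barcodes, out of 10923 barcodes kept from 2 pancreas libraries and 19860 kept from all 4 libraries of a single-cell RNA sequencing study. A barcode holds the RNA of a droplet, usually of a single cell, and each unique molecular identifier (UMI) counted in it stands for a captured transcript. A barcode was kept where it had at least 200 detected genes and at most 10% of UMIs from mitochondrial genes. It was called a neutrophil where S100a8 and S100a9 together had at least 30 UMIs and where Retnlg, Csf3r, Cxcr2 and Mmp9 together had at least 1. It also had to hold no UMI of Cd3e, Cd3d or Cd3g, the signalling chains of the T cell receptor complex, and fewer than 5 UMIs of the macrophage genes C1qa, C1qb and C1qc. The members were therefore chosen on measured values, and the levels of these genes in them are given as a description only.

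Neutrophils are short-lived granulocytes that the bone marrow releases and that enter inflamed tissue. While they mature they make their granule proteins in waves. Primary granule enzymes such as Elane and Mpo come early, secondary granule proteins such as Camp, Ngp and Ltf follow, and gelatinase (Mmp9) and the receptors Csf3r and Cxcr2 mark mature cells. In tissue they kill microbes with granule proteins and an oxidase, and they release interleukin-1 beta and chemokines that draw further leukocytes.

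The pancreas libraries held leukocytes sorted by flow cytometry for CD45 from pre-diabetic females aged 12 weeks. The control library came from 4 Ocabfl/fl mice, and the CD4-Cre library from 4 Ocabfl/fl.CD4-Cre mice. Both groups thus carried floxed alleles of Ocab, the older name of Pou2af1, which encodes a transcriptional coactivator, and the second also carried Cre recombinase driven by the Cd4 promoter, which is active in T cells and not known as a neutrophil promoter. The strain is not given in the sources used here. The other pair of libraries, from 5 mice each of the same genotypes at 8 weeks, held T cells taken from pancreatic lymph nodes by magnetic selection for CD3. Each group was 1 library with the cells of all its mice, so there are no replicates and no test between genotypes: every difference below is between 2 libraries, and each 95% interval covers counting error only.

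The deposited pancreas tables listed 4524 control and 6963 CD4-Cre barcodes, with 20807342 and 32798133 UMIs, and no barcode below 500 UMIs. Of these, 4232 and 6691 were kept. The pancreas libraries shared 46 barcode sequences, none of them a neutrophil, and 2 control neutrophils had barcodes that were also in the CD4-Cre lymph node library. The 2 lymph node libraries held no barcode that met the neutrophil rule, with at most 3 UMIs of S100a8 and S100a9 in any kept barcode. Barcodes of other cells in the same pancreas libraries served as comparison: those with at least 2 Cd3 UMIs (2296 control and 4052 CD4-Cre), those with at least 3 UMIs of the B cell genes Cd79a, Cd79b and Ms4a1 and no Cd3 UMI (902 and 1325), those with at least 5 C1q UMIs (95 and 96), and those with at least 3 UMIs of Ace and Ear2, genes of patrolling monocytes (71 and 64).

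The genes of the rule were high in the members of both libraries by construction, and their values describe what was chosen. S100a8 and S100a9 encode the subunits of calprotectin, the most abundant protein of the neutrophil cytosol. S100a8 ranged from 4 to 588 UMIs per control barcode with a median of 90.5, and from 4 to 1082 per CD4-Cre barcode with a median of 60. S100a9 ranged from 16 to 810 with a median of 157 in control barcodes, and from 22 to 1264 with a median of 114 in CD4-Cre barcodes. Together they made up a median of 12.7% of a control neutrophil's UMIs and 12.0% of a CD4-Cre neutrophil's, and the ranges of the libraries overlapped almost entirely. Csf3r, the receptor for granulocyte colony-stimulating factor, had a UMI in 111 of 112 control and 59 of 61 CD4-Cre barcodes. Cxcr2, the main neutrophil chemokine receptor, had one in 108 and 57, the gelatinase gene Mmp9 in 98 and 54, and Retnlg, a resistin-like secreted protein, in 92 and 50. The rule asked for any of these 4 genes, and most barcodes held several of them.

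Few members lay near the threshold. The 11 control members with 30 to 59 UMIs of S100a8 and S100a9 started at 32 UMIs, and the 4 CD4-Cre members in that range started at 33. Just outside it, 3 control barcodes with 18, 19 and 23 UMIs and 2 CD4-Cre barcodes with 18 and 19 met all the other conditions. At the upper end, 94 control and 48 CD4-Cre members had at least 100.

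The genes named next were not used by the rule. They were picked for the highest ratios of members over either of 2 classes of mononuclear phagocytes, the C1q and the Ace and Ear2 barcodes. High levels in members and low ones in those classes thus describe the choice and do not test the label. Lrg1, a secreted glycoprotein stored in neutrophil granules, was at 2551 CPM, its UMIs scaled to 1000000 of the neutrophils' summed UMIs, in the control and at 2076 CPM in the CD4-Cre library, and it had no UMI in any C1q barcode or any Ace and Ear2 barcode. Counted against a floor of 3 UMIs per class and library, it was at least 457-fold higher in control neutrophils and at least 367-fold higher in CD4-Cre neutrophils than in the Ace and Ear2 barcodes. Wfdc21 and Stfa2l1, which encode small protease-inhibitor-type proteins, also had no UMI in either class in either library. G0s2, an inhibitor of fat breakdown, was at 1378 and 1225 CPM, and it had between 0 and 3 UMIs in any of these classes. Hdc, the enzyme that makes histamine, was at 1087 and 957 CPM and had at most 1 UMI there. Also among the 15 genes with the highest ratio over the Ace and Ear2 barcodes were Arg2, a mitochondrial arginase, Mxd1, an antagonist of Myc, Slc40a1, the iron exporter, and Il1f9, which encodes interleukin-36 gamma.

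Markers of T cells, natural killer cells and other granulocytes were at or near 0. Some phagocyte genes were found in many members, and B cell markers in 19 control and 10 CD4-Cre members. All 8 natural killer cell markers had no UMI in any member of either library. The 12 T cell markers, of which the rule had set 3 to 0, summed to 13 UMIs in control and 2 in CD4-Cre neutrophils, with Trac and Cd8a among those at 0. Of 12 eosinophil, basophil and mast cell markers, 11 had no UMI in control and 10 in CD4-Cre members, and Siglecf gave 13 and 6 UMIs. The 12 macrophage markers summed to 501 and 678 CPM, with a UMI in 67 of 112 and 32 of 61 members, and C1qc, Mertk and Ms4a7 were at 0 in both libraries. The 12 monocyte markers summed to 1041 and 1094 CPM, with a UMI in 72 and 37 members. Csf1r, the receptor for macrophage colony-stimulating factor, had 82 UMIs in 48 control and 37 UMIs in 21 CD4-Cre members, while the classical monocyte gene Ly6c2 had 0 and 1 UMI. The 19 exocrine and islet markers summed to 227 UMIs in 15 control and 11 UMIs in 7 CD4-Cre members, with 89.0% of the control UMIs in 1 barcode. The 9 B cell markers summed to 88 UMIs in 19 control members and 135 UMIs in 10 CD4-Cre members. A single barcode held 73.9% of the B cell UMIs in the control and 57.0% in the CD4-Cre library. A doublet score (Scrublet) was set to mark a share of barcodes that grew by 0.8% with each 1000 barcodes listed. It marked 164 of 4232 kept barcodes in the control and 388 of 6691 in the CD4-Cre library. Among the members it marked 7 of 112 and 4 of 61.

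Neutrophils were a larger share of the kept barcodes in the control library. They made up 112 of 4232 control barcodes, or 2.65% (exact 95% interval 2.18 to 3.18), and 61 of 6691 CD4-Cre barcodes, or 0.912% (0.698 to 1.17). The difference of CD4-Cre minus control was -1.73 percentage points (-2.30 to -1.22), and the control share was 2.90-fold the CD4-Cre share (2.11 to 4.03). A share depends on the other cells in the sorted sample, and Cd3 barcodes were 54.3% of the control and 60.6% of the CD4-Cre library. Among kept barcodes without a Cd3 UMI the neutrophil shares were 7.05% and 2.99%. Among those that also had fewer than 3 B cell gene UMIs they were 16.4% and 8.36%, a ratio of 1.96. The neutrophil share was thus higher in the control library with each of these denominators, by a ratio that narrowed as lymphocytes were left out. The other phagocyte barcodes went the same way: C1q barcodes were 2.24% of the control and 1.43% of the CD4-Cre library, and Ace and Ear2 barcodes 1.68% and 0.957%. What set these shares was not tested.

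Neutrophils gave less RNA per barcode than any of the other classes. Control members had a median of 2155 UMIs, from 505 to 12577, and CD4-Cre members a median of 1763, from 566 to 32211. The 95% intervals of these medians, 1932 to 2421 and 1638 to 2263, overlapped. The medians of detected genes were 837.5 and 781. Cd3 barcodes had medians of 3468.5 and 3566 UMIs, B cell gene barcodes 3555 and 3405, Ace and Ear2 barcodes 6412 and 6422, and C1q barcodes 7665 and 7870.5. The lymphocyte and phagocyte medians of the 2 libraries lay close together, so the neutrophils' lower depth was present in both. As the tables stop at 500 UMIs, neutrophils with less RNA than that are not counted in any share.

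**Figure D1:**
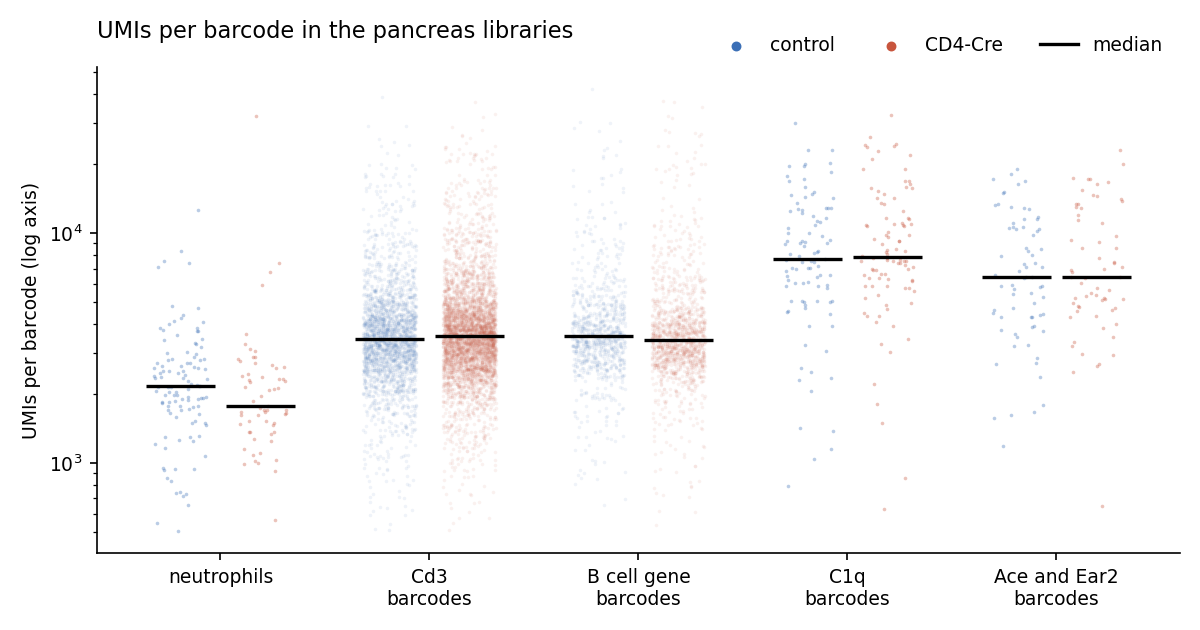
UMIs per barcode (log axis) in neutrophils and 4 other barcode classes of the control and CD4-Cre pancreas libraries, 1 point per barcode, with bars at the medians. Neutrophil medians of 2155 and 1763 UMIs lie below those of all the other classes in both libraries, and a single CD4-Cre neutrophil barcode stands at 32211 UMIs.

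The composition of that RNA was also unlike that of lymphocytes. Ribosomal protein genes took a median of 3.13% of UMIs in control and 3.52% in CD4-Cre neutrophils, against 31.3% and 32.6% in Cd3 barcodes and 16.9% in C1q barcodes of both libraries. Mitochondrial genes took 0.126% and 0.111%, against 2.46% and 2.45% in Cd3 barcodes. Both shares are low in the neutrophils of either library, and neither separates the libraries.

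A few deep barcodes carried much of the summed counts. The neutrophils' UMIs summed to 281500 in the control and 160850 in the CD4-Cre library. In the control, 5 members above 5000 UMIs held 15.3% of that sum. In the CD4-Cre library, 4 such members held 32.5%, and the deepest, with 32211 UMIs, held 20.03% alone. That barcode had 616 UMIs of Cd74, 230 of H2-Aa, 42 of Fn1 and 31 of Ccr2, genes of antigen-presenting cells and monocytes, beside 11 UMIs of S100a8 and 54 of S100a9. Among the others above 5000 UMIs, 1 control and 2 CD4-Cre barcodes held 5 or more UMIs of Ms4a1, the B cell gene for CD20. The values below are therefore also given for the 107 control and 57 CD4-Cre members of at most 5000 UMIs, a limit chosen after seeing the data.

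Of 7 primary granule genes listed, 1 reached 30 UMIs over both libraries, while those named next were at or near 0. Elane, Mpo, Ctsg and Ms4a3 had no UMI in any member, and Prtn3, which encodes proteinase 3, had 1 in each library. Of 12 cell cycle genes listed, 2 reached 30 UMIs, both higher in CD4-Cre and 1 past 2-fold, against 5.81% of all genes. In members of at most 5000 UMIs 1 of them reached 30 UMIs, and it was lower in CD4-Cre. Mki67 and Top2a were near 0, with 1 UMI each in the control and none in the CD4-Cre members. By contrast, genes of the late stage were present in most barcodes. Alox5ap, needed for leukotriene synthesis, had a UMI in 111 of 112 and 61 of 61 members, and Pglyrp1, a peptidoglycan-binding granule protein, in 108 and 59. Of the 17 genes listed for late granules and mature neutrophils, all 17 reached 30 UMIs over both libraries, 6 higher and 11 lower in CD4-Cre, with a median log2 ratio of CPM (CD4-Cre over control) of -0.25, and 0.01 in members of at most 5000 UMIs.

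Secondary granule genes were split between very few barcodes and the rest. Camp encodes the antimicrobial peptide CRAMP, Ngp neutrophilic granule protein and Ltf the iron-binding lactotransferrin. Their UMIs lay in 5 of 112 control and 6 of 61 CD4-Cre members. In the CD4-Cre library 1 barcode of 7370 UMIs held 1166 of the 1174 UMIs of these 3 genes, with 396 of Camp, 596 of Ngp and 174 of Ltf. In the control 1 barcode held 42 of 49. Lcn2, which encodes the iron-siderophore-binding lipocalin-2, was spread more widely, over 73 control and 35 CD4-Cre members, with 577 and 490 UMIs in all. The same CD4-Cre barcode held 270 of those 490. Promoter windows of these 4 genes are shown because their transcripts were found together at high counts in the same barcodes. Each is the 250 bases before the gene's start in the RefSeq table of build GRCm38.p6, written 5′ to 3′ on the gene's strand, with matches to the C/EBP letters TTGCNNAA on either strand in capitals. The windows are Camp at chr9:109849457-109849706 on the minus strand, Ngp at chr9:110419558-110419807 on the plus strand, Ltf at chr9:111019042-111019291 on the plus strand and Lcn2 at chr2:32387740-32387989 on the minus strand.
Camp: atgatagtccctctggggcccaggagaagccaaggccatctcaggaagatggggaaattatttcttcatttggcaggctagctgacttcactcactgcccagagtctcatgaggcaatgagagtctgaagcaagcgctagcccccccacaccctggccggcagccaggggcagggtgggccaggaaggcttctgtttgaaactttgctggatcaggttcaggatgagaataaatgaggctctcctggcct
Ngp: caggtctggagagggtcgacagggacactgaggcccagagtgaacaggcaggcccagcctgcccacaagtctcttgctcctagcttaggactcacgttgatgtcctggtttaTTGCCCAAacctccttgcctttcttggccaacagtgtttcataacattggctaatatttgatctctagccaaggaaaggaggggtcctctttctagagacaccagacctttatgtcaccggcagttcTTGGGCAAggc
Ltf: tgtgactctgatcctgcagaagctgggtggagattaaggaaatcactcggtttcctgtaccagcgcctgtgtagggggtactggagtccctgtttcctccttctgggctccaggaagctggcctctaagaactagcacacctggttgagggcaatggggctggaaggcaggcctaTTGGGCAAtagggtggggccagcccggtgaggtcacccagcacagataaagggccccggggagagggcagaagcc
Lcn2: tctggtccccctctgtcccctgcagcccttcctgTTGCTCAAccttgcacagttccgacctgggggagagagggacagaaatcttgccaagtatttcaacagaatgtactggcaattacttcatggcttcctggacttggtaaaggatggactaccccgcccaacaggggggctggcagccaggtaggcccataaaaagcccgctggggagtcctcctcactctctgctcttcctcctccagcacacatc

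The Ngp window held 2 such matches, at -138 and -11 from the start, and the Ltf and Lcn2 windows held 1 each, at -75 and -216. The Camp window held none, and 9.56% of all 32851 promoter windows of this length held at least 1. The letters GAGGAA, a core bound by PU.1, were found on either strand once in the Ltf and once in the Lcn2 window and in 23.3% of all windows, and none of these matches overlapped a C/EBP match. These matches describe letters and are not evidence of binding.

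Shares of members with a maturity gene were compared after each barcode had been thinned to 500 UMIs, since a deeper barcode shows more genes. A UMI of Camp, Ngp or Ltf was then found in 1.79% of control (exact 95% interval 0.217 to 6.30) and 6.56% of CD4-Cre members (1.82 to 15.9). Lcn2 was found in 39.3% and 34.4%, the collagenase gene Mmp8 in 12.5% and 9.84%, and Cd177, a surface protein of neutrophil subsets, in 8.04% and 6.56%. Ly6g, the antigen most used to sort mouse neutrophils, was found in 8.04% and 8.20% of thinned barcodes, and in 25.9% and 18.0% of unthinned ones. For each of these the interval of the difference included 0. In B cell gene barcodes of the same libraries, at medians of 3555 and 3405 UMIs before thinning, these shares were between 0% and 0.0755%.

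Of Il1r2, Cd101 and Cxcr4, surface proteins of mature cells, only Il1r2 had a difference whose interval left out 0. Il1r2, the decoy receptor for interleukin-1, was found in 5.36% of thinned control and 18.0% of thinned CD4-Cre members, a difference of 12.7 points (3.05 to 24.5), and in 0% of thinned B cell gene barcodes. That difference was -0.47 points where barcodes with Cd3d UMIs were allowed. Thinned to 1000 UMIs, the shares were 11.1% and 24.6%, a difference of 13.5 points (1.36 to 26.9). With another random thinning to 500 UMIs they were 7.14% and 13.1%, with an interval of the difference from -2.96 to 17.2, and unthinned shares were 29.5% and 42.6%, with an interval of the difference from -1.54 to 27.8. The control share was the lower in each of these settings but not where Cd3d was allowed, and the interval did not leave out 0 in all of them. Cd101, a marker of late maturation, was found in 13.4% and 21.3%. Cxcr4, the receptor that guides aged neutrophils to marrow, was found in 8.93% and 11.5%, against 4.66% and 3.55% of B cell gene barcodes. For Cd101 and Cxcr4 the interval of the difference included 0, so no difference was detectable with this number of barcodes.

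**Figure D2:**
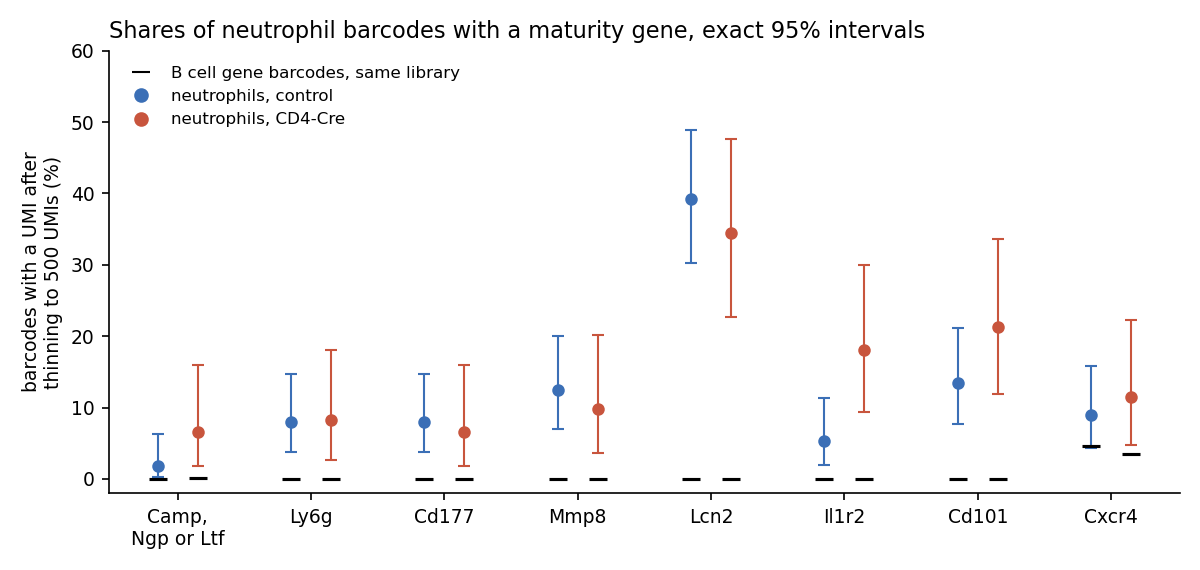
Share of neutrophil barcodes with at least 1 UMI of each maturity gene after thinning to 500 UMIs, in % with exact 95% intervals, in the control (n = 112) and CD4-Cre (n = 61) libraries; black dashes give B cell gene barcodes of the same library. The paired intervals overlap for every gene shown, and Il1r2 is the gene with the largest gap, 5.36% against 18.0%.

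The condition on Cd3 genes removed most granule-rich barcodes. Without it, 145 control and 96 CD4-Cre barcodes met the rest of the rule. Of these, 29 control (20%, 13.8 to 27.4) and 19 CD4-Cre barcodes (19.8%, 12.4 to 29.2) had UMIs of Cd3d and none of Cd3e or Cd3g. The same Cd3d-only state was found in 0.953% and 1.01% of barcodes with B cell genes. None of the Cd3d-only barcodes had a Trac UMI, and ribosomal protein genes took 2.42% and 2.80% of their UMIs, near the members' shares. S100a8 and S100a9 took 20.6% of UMIs in the control ones, above the members' 12.7%, and 12.3% in the CD4-Cre ones, and adding the control ones raised the UMIs of Camp from 9 to 3120 and those of Anxa1, which encodes annexin A1, from 754 to 2326. Barcodes with Cd3e or Cd3g, 4 in the control and 16 in the CD4-Cre library, differed from them, with 11.3% and 13.9% ribosomal protein UMIs and Trac in 2 and 6 barcodes. In the CD4-Cre library 5 of those 16 were marked by the doublet score, against 388 of all 6691 kept barcodes.

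Granule transcripts and Cd3d lay in the same barcodes. At least 10 UMIs of Camp, Ngp and Ltf together were found in 10 control barcodes, of which 9 also had Cd3d (exact 95% interval of the share 55.5 to 99.7%) and none had a UMI of Cd3e, Cd3g, Trac or the Trbc genes. Among the 135 control barcodes below that level, 23 had Cd3d (17.0%, 11.1 to 24.5). Granule-rich barcodes were deeper, with a median of 9771.5 against 2238 UMIs, so the level was compared as well. Cd3d was at 380 CPM (270 to 519) in the granule-rich and 97.95 CPM (68.2 to 136) in the other control barcodes. In the CD4-Cre library 5 of 6 granule-rich barcodes had Cd3d, and 2 of the 6 also had Cd3e or Cd3g. There the levels were 376 CPM (219 to 602) and 279 CPM (223 to 345), with overlapping intervals. These counts were examined after the pattern had been seen, and its cause was not tested.

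With Cd3d allowed, the library difference in the granule genes changed sign. The members then numbered 141 and 80, and the log2 ratio of CPM in CD4-Cre over control was -0.079 for Camp, -0.49 for Ngp, -0.73 for Ltf and -1.36 for Chil3, which encodes the chitinase-like protein Ym1. Under the rule as given, Camp and Ngp stood at 6.27 and 4.72, both set by the CD4-Cre barcode with 1166 granule UMIs. Of the 9 secondary granule genes with at least 30 UMIs, 7 were higher in CD4-Cre and 4 of them (Camp, Ngp, Ltf and Chil3) past 2-fold, against 5.81% of all genes, with a list median of 0.86. That median was -0.14 in members of at most 5000 UMIs and -0.59 with Cd3d allowed. The direction in these genes thus depended on the Cd3 condition and on 1 barcode.

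**Figure D3:**
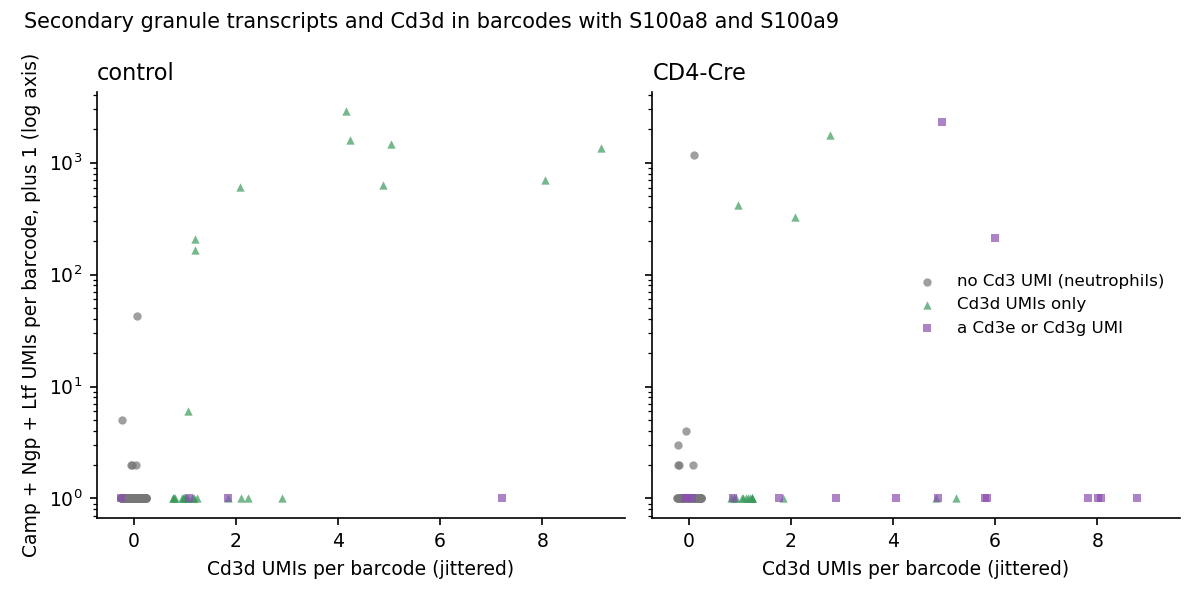
Summed UMIs of Camp, Ngp and Ltf plus 1 (log axis) against Cd3d UMIs (jittered) in each barcode that met the rule apart from its Cd3 condition, control left and CD4-Cre right. In the control library 9 of the 10 barcodes with at least 10 granule UMIs carry Cd3d UMIs and none carries Cd3e or Cd3g.

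Over all genes, most levels differed little between the libraries. Of 1808 genes with at least 30 UMIs over both, 105 (5.81%) were at least 2-fold higher in the CD4-Cre neutrophils and 59 (3.26%) at least 2-fold lower, 9.07% in either direction, and the median log2 ratio was -0.01. Of the 105 higher genes, 55 had most of their CD4-Cre UMIs in the deepest barcode, and of the 59 lower genes 4 had most of their control UMIs in a single barcode. With members of at most 5000 UMIs, 25 of 1412 genes (1.77%) were higher and 30 (2.12%) lower, and 11 and 21 of these were among those past 2-fold over all members. That is 3.9% in either direction. With Cd3d allowed 107 of 2386 genes (4.48%) were higher and 59 (2.47%) lower, 6.96% in all. The split also turned with the scaling: trimmed-mean (TMM) factors gave 68 higher and 108 lower genes and DESeq2 size factors 68 and 123, since they moved the median of all genes to -0.23. Of the genes past 2-fold lower, 21 of 59 still had at least 30 UMIs and were past 2-fold without the deep barcodes, and of those past 2-fold higher, 11 of 105. The rest fell below 30 UMIs or below 2-fold there, so not all of them lost their difference.

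Genes were ranked by ratio where they had at least 30 UMIs, a UMI in each library and an interval that left out 0. They also needed at least 0.5 times the level of other kept barcodes. Receptor, immunoglobulin, haemoglobin, mitochondrial, exocrine, islet and rule genes were left out. The genes that ranked highest were mostly those of the deepest barcodes. Beside Camp and Ngp these were Capg, an actin-capping protein with 1 control and 43 CD4-Cre UMIs, Ccr2, the receptor for monocyte chemokines with 3 and 31, Chil3, Cebpe, Rnh1, Ctsz, Emp3 and Eif6. Each of them had most of its CD4-Cre UMIs in 1 barcode. The same ranking was made in members of at most 5000 UMIs, with each condition applied to their counts. The highest log2 ratios in it were those of Olfm4 at 1.92 (0.78 to 3.14), Mpp1 at 1.67 (0.80 to 2.57) and Sesn2 at 1.605 (0.49 to 2.76). Olfm4, olfactomedin-4, marks a subset of neutrophils, and 13 of its 19 CD4-Cre UMIs lay in 1 barcode. Mpp1, a membrane scaffold protein, had 20 UMIs in 18 control and 29 UMIs in 18 CD4-Cre barcodes, with at most 5 in any of them.

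Cxcl2, the chemokine MIP-2 that binds Cxcr2 and calls in more neutrophils, had the lowest ratio in the ranking over all members. That ranking left out genes of exocrine and islet cells, among others. The digestive enzyme genes Ctrb1 and Cela2a were lower, at -4.65 and -4.48, with 40 of 44 and 38 of 39 control UMIs in a single barcode each. Control members ranged from 0 to 42 UMIs and CD4-Cre members from 0 to 20, with a median of 0 in both. In all, 441 UMIs lay in 42 of 112 control members and 44 UMIs in 6 of 61 CD4-Cre members, or 1567 and 274 CPM. The transcripts were thus absent from most barcodes of either library, and the barcodes with them were more frequent in the control. The log2 ratio was -2.52 (-2.999 to -2.07), and it was -2.82 in members of at most 5000 UMIs, -2.98 with equal weight for each barcode and -2.35 with Cd3d allowed. After thinning, 27.7% of control members (19.6 to 36.9) and 6.56% of CD4-Cre members (1.82 to 15.9) had a UMI, a difference of -21.1 points (-30.9 to -9.35), against 0.111% and 0.0755% of B cell gene barcodes. In the other phagocytes the libraries went both ways, with 257 and 369 CPM in C1q barcodes and 533 and 292 CPM in Ace and Ear2 barcodes. The Cxcl2 promoter window, chr5:90903649-90903898 on the plus strand of GRCm38.p6 from RefSeq, is shown because this gene had the clearest library difference, with matches to the NF-kB letters GGG, any 3 letters and TTCC, on either strand, in capitals.
Cxcl2: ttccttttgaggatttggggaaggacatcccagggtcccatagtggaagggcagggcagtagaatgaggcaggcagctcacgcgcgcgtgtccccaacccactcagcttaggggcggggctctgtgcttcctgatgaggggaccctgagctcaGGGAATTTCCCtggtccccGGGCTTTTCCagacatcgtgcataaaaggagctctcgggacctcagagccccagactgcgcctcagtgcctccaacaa

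That window held 3 NF-kB matches, at -97, -96 and -78 from the start, and those at -97 and -96 overlapped each other on opposite strands. Of all 32851 windows, 4.65% held at least 1 match.

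Il1b, which encodes interleukin-1 beta, was found in nearly every neutrophil. Control members ranged from 0 to 91 UMIs with a median of 31, and CD4-Cre members from 0 to 55 with a median of 19. Per 10000 UMIs of a barcode the medians were 147 and 115, and the ranges overlapped. The summed level was 12860 CPM in the control and 8486 CPM in the CD4-Cre library, a log2 ratio of -0.60 (-0.69 to -0.51). It was -0.25 in members of at most 5000 UMIs and -0.18 with Cd3d allowed, so its size depended on which barcodes were counted. C1q barcodes of the same libraries were at 348 and 244 CPM.

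**Figure D4:**
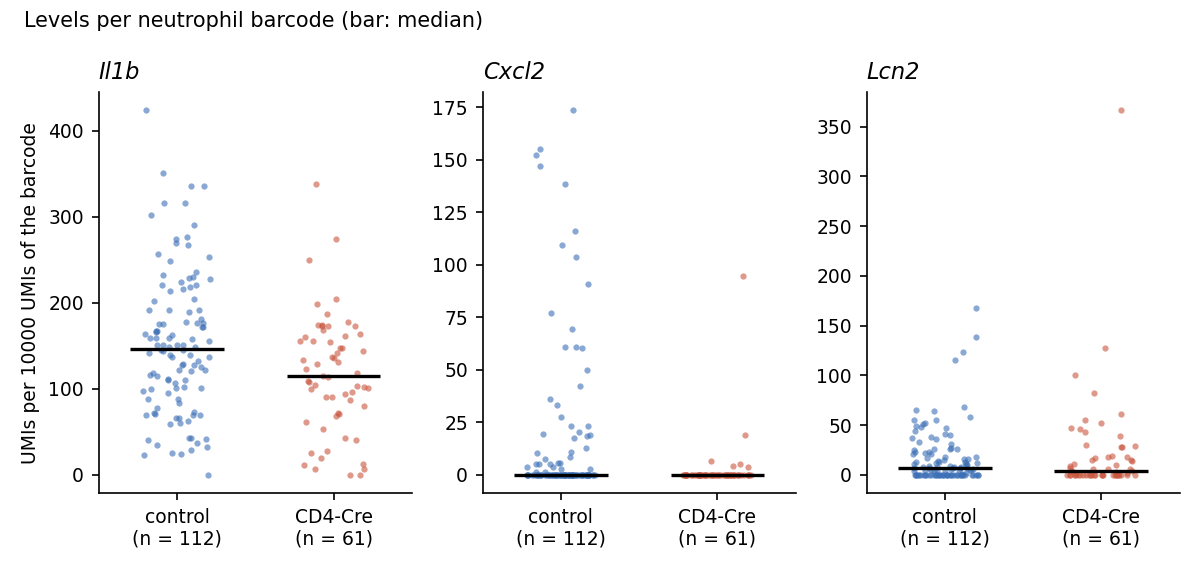
UMIs per 10000 UMIs of the barcode for Il1b, Cxcl2 and Lcn2 in each neutrophil barcode of the control (n = 112) and CD4-Cre (n = 61) libraries, with bars at the medians. Il1b covers nearly the same range in both libraries, Cxcl2 is found in 42 control and 6 CD4-Cre barcodes, and Lcn2 reaches its highest value in a single CD4-Cre barcode.

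Of 23 genes listed as secreted signals, 22 were matched and 11 reached 30 UMIs, 2 higher and 9 lower in the CD4-Cre library, with 2 past 2-fold lower (Cxcl2 and Ccl3). The background over all genes was 3.26% past 2-fold lower. The median log2 ratio of the list was -0.60 over all members and 0.00 in those of at most 5000 UMIs, so the lean of the list was not seen without the deep barcodes. Ccl3 and Ccl4, inflammatory chemokines, had 28 and 63 UMIs in the control and 7 and 30 in the CD4-Cre members, and 1 CD4-Cre barcode held 27 of the 30 Ccl4 UMIs there. Osm, the cytokine oncostatin M, was counted 65 and 22 times, with a ratio of -0.76 (-1.52 to -0.04), and at -0.28 without the deep barcodes. Il1rn, the interleukin-1 receptor antagonist, was at 391 and 367 CPM, and Ccl6, a chemokine found in 106 and 55 members, at 4472 and 4974 CPM. Tnf had 9 and 5 UMIs and Cxcl10 had 3 and 0.

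Interferon-response genes leaned to the control library. Of 35 on the list 11 reached 30 UMIs, of which 10 were lower and 1 higher in the CD4-Cre neutrophils, 3 of them at least 2-fold lower. Over all 1808 genes 915 were lower and 3.26% at least 2-fold lower. The median log2 ratio of the list was -0.67, against -0.01 over all genes, and it was -0.41 over 10 genes in members of at most 5000 UMIs and -0.59 with Cd3d allowed. It was -0.32 with equal weight for each barcode and -0.21 where S100a8 and S100a9 had to make up 2% of UMIs. Rtp4, a receptor-transporting protein induced by interferon, had 64 UMIs in 22 control members and 9 UMIs in 9 CD4-Cre members, which put its log2 ratio at -2.02 (-3.22 to -1.01). Irf7, the transcription factor that amplifies the type I response, had 30 and 5 UMIs, at -1.78 (-3.50 to -0.40), and Oasl2, a 2′-5′ oligoadenylate synthetase-like protein, 107 and 29, at -1.08 (-1.72 to -0.47). Isg15, a ubiquitin-like modifier, stood at -0.87 (-1.58 to -0.21), and Slfn1, a member of the Schlafen family, at -0.86 (-1.24 to -0.49). For Trim30a, Rsad2, Slfn4, Ly6e and Gbp2 the interval included 0, and Gbp2, at 0.19, was the gene on the other side. In other cells these genes went both ways. Rtp4 was at 31.7 CPM in the control and 27.0 CPM in the CD4-Cre library in Cd3 barcodes, 62.4 and 41.8 CPM in C1q barcodes, and 6.55 and 7.57 CPM in B cell gene barcodes. Irf7 was at 52.2 and 51.0 CPM in Cd3 barcodes and 82.0 and 24.1 CPM in C1q barcodes, but higher in the CD4-Cre library in B cell gene barcodes, at 16.9 and 27.1 CPM, and in Ace and Ear2 barcodes, at 57.7 and 82.9 CPM. Ifitm1, a small interferon-inducible membrane protein found in mature neutrophils, had 489 UMIs in 71 control and 139 UMIs in 29 CD4-Cre members and stood at -1.01 (-1.29 to -0.73), and -0.66 in members of at most 5000 UMIs.

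**Figure D5:**
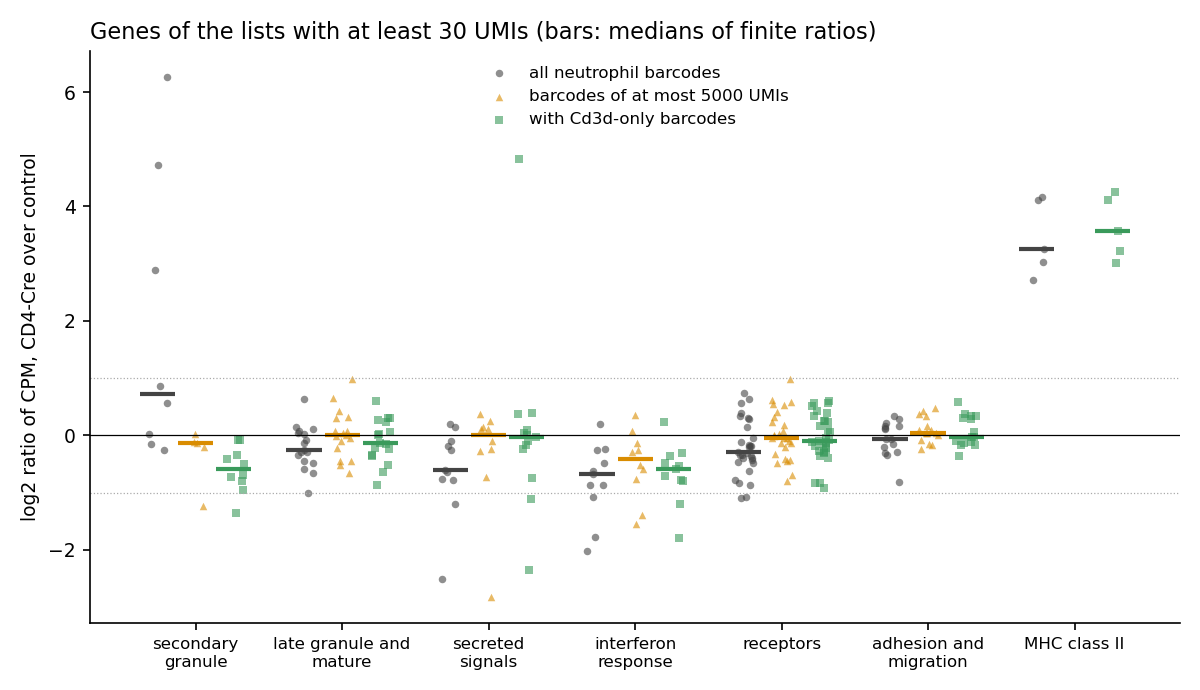
Log2 ratio of CPM in CD4-Cre over control neutrophils for each gene with at least 30 UMIs in 7 gene lists, over all members, members of at most 5000 UMIs and members with Cd3d allowed; bars are medians of the finite ratios and dotted lines mark 2-fold. Secondary granule ratios change sign with the member set, MHC class II genes have no value in members of at most 5000 UMIs, and interferon-response medians stay below 0 in each set.

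Receptors were mostly close between the libraries. Of 33 on the list 30 reached 30 UMIs, 8 higher and 22 lower in the CD4-Cre library, with a median log2 ratio of -0.29 and -0.04 in members of at most 5000 UMIs. Only Trem1 and Lilrb4a were past 2-fold, both lower. Over all 1808 genes 915 were lower and 3.26% at least 2-fold lower. Trem1, a receptor that amplifies inflammatory signals, had 169 UMIs in 76 control and 45 UMIs in 26 CD4-Cre members, at -1.10 (-1.61 to -0.62), and Lilrb4a, an inhibitory receptor, had 59 and 16 UMIs, at -1.08 (-1.97 to -0.26). They stood at -0.69 and -0.79 without the deep barcodes. C5ar1, the receptor for complement C5a, was at 1190 and 858 CPM, and Cd14, the co-receptor for lipopolysaccharide, at 2256 and 1703 CPM, with ratios of -0.13 and -0.10 without the deep barcodes. Fcgr3, a low-affinity receptor for antibody, leaned the other way. Its log2 ratio was 0.30 (-0.06 to 0.65), 0.55 (0.17 to 0.92) in members of at most 5000 UMIs and 0.34 (0.04 to 0.63) with Cd3d allowed. A UMI of Fcgr3 was found in 22.3% of thinned control and 42.6% of thinned CD4-Cre members, a difference of 20.3 points (5.88 to 34.5). The shares were 25.9% and 39.3% with another random thinning, 43.4% and 50.9% at 1000 UMIs and 71.4% and 72.1% without thinning. In each of these other settings the interval of the difference included 0.

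Among 21 transcription factors 16 reached 30 UMIs, 4 higher and 12 lower in the CD4-Cre library, with Cebpe past 2-fold higher and Irf7 and Nfil3 past 2-fold lower, against 5.81% and 3.26% of all genes and 915 of 1808 lower. Nfil3, a basic leucine zipper factor, had 34 and 8 UMIs, at -1.28, and at -0.39 with Cd3d allowed. Spi1, which encodes PU.1, was found in 102 and 56 members at 1595 and 1324 CPM, and Cebpb, a factor of emergency granulopoiesis, in 106 and 58 at 2980 and 2251 CPM. Their log2 ratios of -0.27 and -0.41 became -0.0048 and -0.033 in members of at most 5000 UMIs. Cebpe, which drives secondary granule genes, had 9 UMIs in 8 control members and 24 in 7 CD4-Cre members, 13 of them in the deepest barcode. The immediate-early factors Fos and Junb were abundant in both libraries, with Junb in 112 of 112 and 61 of 61 members. As tissue digestion is known to induce such genes, a list of 18 was examined: 14 reached 30 UMIs, 4 higher and 10 lower, with a median of -0.14, and 0.051 without the deep barcodes. Ier3, at -1.02, was the only member past 2-fold, against 3.26% of all genes past 2-fold lower. The heat-shock gene Hspa8 went against the list, with 155 UMIs in 49 control and 152 UMIs in 42 CD4-Cre members and a log2 ratio of 0.78 (0.45 to 1.11) that was 1.43 without the deep barcodes. Hspa8 was found in 10.7% and 31.1% of thinned neutrophils and in 50% and 58.0% of thinned B cell gene barcodes. With another random thinning the neutrophil shares were 20.5% and 27.9%, with an interval of the difference from -5.48 to 21.2.

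The oxidase and killing genes gave 6 higher and 6 lower of 12 with at least 30 UMIs, and none was past 2-fold. Cyba and Ncf1, subunits of the phagocyte oxidase, were higher in the CD4-Cre library, at 0.58 (0.36 to 0.79) and 0.93 (0.39 to 1.47), and they stood at 0.42 and 0.73 without the deep barcodes. Of 15 adhesion and migration genes with at least 30 UMIs 7 were higher and 8 lower, with a median of -0.06. Selplg, the ligand of P-selectin, stood at -0.32, Itgb2, the beta chain of the leukocyte integrins, at -0.06, and Cd44 at 0.13. In the list of 16 survival and death genes 1 was higher and 8 lower of 9, with none past 2-fold, and Mcl1, the survival factor on which neutrophils depend, was at 1105 and 1082 CPM. Glycolysis genes gave 6 higher and 6 lower of 12, with a median of 0.02. Of 18 genes associated with aged or tissue-resident neutrophils 7 reached 30 UMIs, 1 higher and 6 lower. Cstb, a cysteine protease inhibitor, was past 2-fold higher at 1.26, with 24 of its 48 CD4-Cre UMIs in 1 barcode, and Ccl3 past 2-fold lower, and Siglecf and Hilpda did not reach 30 UMIs. Beside these counts, 915 of all 1808 genes were lower, 5.81% were past 2-fold higher and 3.26% past 2-fold lower. The medians of these 5 lists lay between -0.19 (survival and death) and 0.16 (oxidase and killing) over all members.

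Genes of MHC class II gave the largest list median, and it came from 5 barcodes. All 5 genes with at least 30 UMIs were past 2-fold higher in the CD4-Cre library, where the background was 5.81%, with a median log2 ratio of 3.26. The list's UMIs summed to 406 in 27 control members and 1838 in 14 CD4-Cre members. In the control 2 members held 91.6% of them and in the CD4-Cre library 3 members held 99.3%, and all 5 had over 5000 UMIs. In members of at most 5000 UMIs no class II gene reached 30 UMIs, Cd74 had a log2 ratio of -0.11, and the list has no median. Of those 5 barcodes, 1 control and 2 CD4-Cre barcodes had at least 3 UMIs of the B cell genes. The B cell markers summed to 313 CPM in control and 839 CPM in CD4-Cre members, and Ighd and Pax5 were at 0 in the control.

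Neutrophils varied among themselves in a small set of genes. Over members thinned to 500 UMIs, the Fano factor (variance over mean, near 1 for counting noise alone) had a median of 1.105 over 418 genes. The highest was that of Gm42418, at 33.3, a locus known to take up ribosomal RNA reads, whose level was lower in the CD4-Cre library in most classes: 23542 and 10426 CPM in neutrophils, 24986 and 15092 CPM in Cd3 barcodes, 22075 and 14215 CPM in B cell gene barcodes and 18786 and 9731 CPM in C1q barcodes. Ace and Ear2 barcodes went the other way, at 14725 and 16900 CPM. Ngp followed at 30.9 and Cd74 at 12.3, both from the few barcodes described above. Genes spread over more barcodes came next. Lcn2 stood at 5.30, Wfdc17, a small secreted protein, at 5.30, and Lyz2, which encodes lysozyme, at 5.09. Wfdc17 had UMIs in 58 of 112 control and 33 of 61 CD4-Cre members, from 0 to 86 and 0 to 29 per barcode with a median of 1 in both, at a log2 ratio of -1.12 (-1.33 to -0.91), and -0.78 in members of at most 5000 UMIs. Cxcl2 stood at 3.88, G0s2 at 3.39 and Il1b at 3.22, all above the median of the 418 genes. BC100530, a stefin gene of neutrophils with near-identical relatives among which reads may be split, stood at 2.96, and had 188 UMIs in 23 control and 36 UMIs in 8 CD4-Cre members.

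The targeted gene was nearly absent from neutrophils. Pou2af1 had 3 UMIs in 2 control members and 4 UMIs in 2 CD4-Cre members. It was at 221 and 244 CPM in B cell gene barcodes, in which the Cd4 promoter is not known to be active. In Cd3 barcodes, where Cre is expected from that promoter, 49 UMIs gave 5.18 CPM (3.83 to 6.85) in the control and 10 UMIs gave 0.580 CPM in the CD4-Cre library. The C1q and the Ace and Ear2 barcodes had none in either library. At 10.7 CPM (2.20 to 31.1) and 24.9 CPM (6.78 to 63.7), no difference in Pou2af1 was detectable between the neutrophils of the 2 libraries at this depth.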

How the data were processed

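Cell suspensions were sequenced as 10x Genomics 5′ libraries, per the labels' protocols. The authors deposited UMI counts per gene and barcode, made with Cell Ranger against mm10 per the submitters' processing notes; the matrix header gives software version 3.0.0. The files hold called cells only, and steps before the tables are not given in the sources used here.

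Members and gene lists were chosen with earlier results of these data known. UMIs of members were summed per library and scaled to CPM; ratios carry exact conditional binomial intervals, shares Clopper-Pearson intervals and differences of shares Newcombe intervals, all at 95%. Tested genes had at least 30 UMIs over both libraries. Named genes were list members, the 10 highest and 10 lowest ratios whose interval left out 0, the 15 highest Fano factors, and the 15 highest ratios over the C1q and over the Ace and Ear2 barcodes (at least 100 UMIs in members), leaving out receptor, immunoglobulin, haemoglobin, mitochondrial, exocrine, islet and rule genes; the 10 highest and lowest also needed a UMI in each library and at least 0.5 times the level of other kept barcodes. Symbols matched the tables for 32 of 33 receptors, 22 of 23 secreted signals and all genes of the other lists. Alternatives varied the rule, filters, scaling (edgeR 4.0.16 TMM and DESeq2 1.42.0 factors), minimum counts and thinning. Doublets were scored with Scrublet in scanpy 1.11.5 and kept. Sums and intervals were tested on simulated data. Python 3.11.15 and R 4.3.3 were used. Some genes of the lists are not reported here.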

Additional observations from a re-analysis of the deposited data

Results flagged for a closer look

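S100a8 and S100a9 were also looked for in the lymph node libraries, which no comparison above uses and which were selected for CD3. Over all listed barcodes they had 7 UMIs in the control and 17 UMIs in the CD4-Cre lymph node library, in 6 and 9 barcodes, above the limit of 3 counts that a count of 0 allows. No kept barcode held more than 2 and 3 of them, far below the 30 that the neutrophil rule asks for. The source of these UMIs was not tested.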

How the results depend on the processing

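Over 381 list, count and share values computed under an alternative, the value kept its direction and moved little, and over 32 it moved further. Among values of single genes 3336 stayed, 324 moved and 23, all of genes past 2-fold, changed sign. The ratio of neutrophil shares ranged from 1.96 (without Cd3 and B cell gene barcodes) to 2.97. The median depth ranged from 2132 to 2344 UMIs in the control and from 1700 to 2219 in the CD4-Cre library. The interferon-response median ranged from -0.89 to -0.21. The settings with Cd3d allowed, with no Cd3 condition and with members of at most 5000 UMIs were chosen after seeing the data.

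Counts of genes at least 2-fold higher in the CD4-Cre library were 35 with S100a8 and S100a9 at 2% of UMIs or more, 68 with TMM and 68 with DESeq2 factors, 528, 23 and 1134 with a minimum of 10, of 100 and of no UMIs (pseudocount 10 CPM), 367 with no Cd3 condition and 25 in members of at most 5000 UMIs. Counts at least 2-fold lower were 108 with TMM, 123 with DESeq2 factors, 335, 14 and 590 with these minimums and 30 in members of at most 5000 UMIs. The secondary granule median was 1.55 with at least 60 S100 UMIs, 2.65 with a minimum of 100 UMIs, -0.59 with Cd3d allowed, -0.46 with no Cd3 condition and -0.14 in members of at most 5000 UMIs. The late granule median was 0.080 with S100 at 2%. The oxidase median was -0.22 with Cd3d allowed and -0.31 with no Cd3 condition. The class II median was 0.76 with S100 at 2%, 5.81 without marked doublets, 5.71 without members with 3 B cell gene UMIs, 2.46 with equal weight per barcode and 3.86 with no Cd3 condition. The dissociation stress median was 0.16 with Cd3d allowed, and the monocyte marker median 1.94 with at least 60 S100 UMIs. The Ly6g difference was -7.86 points without thinning and the Il1r2 difference -0.47 with Cd3d allowed.

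Among genes past 2-fold, log2 ratios that changed sign were, with Cd3d allowed, Camp at -0.079, Chil3 at -1.36, Ngp at -0.49 and Tuba1b at -0.59. With no Cd3 condition they were Ccl3 at 0.12, Chil3 at -1.11, Ngp at -0.38 and Tuba1b at -0.076. In members of at most 5000 UMIs they were Cd74 at -0.11, Cd79a at -0.19, Emp3 at -0.86, H2-Aa at -1.67, Ngp at -1.23, Rnh1 at -0.0020 and Tuba1b at -1.45. With S100 at 2% they were Emp3 at -1.22 and Tuba1b at -1.65, and with equal weight per barcode Emp3 at -0.37 and Tuba1b at -0.15. Without marked doublets they were Cd79a at -0.23 and Cela2a at 0.77, and without members with 3 B cell gene UMIs Cd79a at -0.46 and Ighm at -0.047. Genes with smaller ratios could change sign too: Dusp1 went from -0.13 to 0.17 with Cd3d allowed, and Csf2ra from 0.57 to -0.48 in members of at most 5000 UMIs. The cause was not tested.

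No paired analysis was possible because each group was 1 library. Leaving out a library would leave no comparison. With 112 and 61 barcodes of low depth, differences in single genes below about 2-fold were often within counting error.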

Other observations

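Among members of at most 5000 UMIs, ratios were ranked over genes with at least 30 UMIs in those members and an interval that left out 0. A UMI in each library and at least 0.5 times the level of other kept barcodes were also needed. Exocrine and islet genes and the other classes left out of the rankings were not included. The lowest ratio in that ranking after Cxcl2 was that of Abca7, a lipid transporter, with 29 and 4 UMIs in the control and CD4-Cre library. Its log2 ratio was -1.72 (-3.69 to -0.21). Eif4h, a translation initiation factor, followed with 28 and 4 UMIs at -1.67 (-3.64 to -0.16). Some genes below that minimum had lower ratios in those members, with Gcnt1 at -1.92 (-4.29 to -0.21) and Med21 and Bptf at -1.74 each. Over all members, Acod1, which makes itaconate in activated myeloid cells, had 28 UMIs in 12 control and 3 UMIs in 3 CD4-Cre barcodes, and Gcnt1, a glycosyltransferase that builds selectin ligands, had 28 in 25 and 3 in 3. Gm34084, a predicted gene, had 76 UMIs in 51 control and 13 UMIs in 12 CD4-Cre barcodes, at -1.74 (-2.71 to -0.88). Mbnl2, an RNA-splicing factor, and Hnrnpul1 were higher in CD4-Cre members of at most 5000 UMIs, at 1.49 (0.54 to 2.46) and 1.38 (0.35 to 2.44), and each had at most 2 UMIs in any barcode of either library.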
